A study of Mus musculus with 8 samples.

Results

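The regions described here are stretches of open chromatin that were called in both untreated wild-type libraries of bone marrow-derived macrophages from mice. Peaks of both lists on the 21 main chromosomes were merged where they overlapped by at least 1 base, and a merged region was kept when both libraries had a peak in it. The rule kept 50489 of the 67900 merged regions of these libraries, or 74.4%. The 17411 other regions were called in exactly 1 of the 2 libraries, and the 8 libraries of the whole series merged into 87260 regions. The regions were chosen by the peak calls of these 2 libraries, so their counts, widths and positions are given below as a description, with no test.

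Wild-type bone marrow cells were grown for 7 days in 25% conditioned medium of L929 cells, fibroblasts that release M-CSF, the growth factor of macrophages, and were left without lipopolysaccharide (LPS). The study calls its 2 libraries of this group biological replicates, but gives no age, sex or number of animals, and whether each library came from its own mouse is not stated. The series also holds untreated Nfat5 knockout cells and LPS-treated cells of both genotypes, which enter only as a count of the 6 other libraries that called a region. No contrast of genotype or treatment was made.

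In ATAC-seq, sequencing adapters are inserted by a transposase wherever chromatin is open, so that a pile of insertions marks promoters, enhancers and other sites where nucleosomes have been displaced. Macrophages take up and digest microbes and dead cells, sense bacterial products and present antigen. Their identity rests on PU.1, the ETS-family factor encoded by Spi1, which opens chromatin together with C/EBP, IRF, RUNX and AP-1 factors at enhancers that are often far from gene starts. Signals through the M-CSF receptor, encoded by Csf1r, keep the cells alive and drive their growth from marrow precursors.

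Promoters that hold the PU.1 binding octamer GAGGAAGT are printed first, because they show the letters that lie under shared regions at macrophage genes and at genes of other myeloid cells where no region was called. Each sequence runs 5′ to 3′ on the strand of the gene, from 250 bases before to 50 bases after the listed start of transcription, and comes from RefSeq on build GRCm38.p6. Capitals mark the octamer, or its reverse complement ACTTCCTC where the site lies on the other strand. The examples were chosen after the positions of the octamer had been seen. Shared regions overlapped the promoters of Havcr2, which encodes the receptor TIM-3, of Fcgr4, an activating Fc receptor, of Ctss, the lysosomal protease cathepsin S, of Tlr9, the sensor of unmethylated DNA, of Aim2, a sensor of cytosolic DNA, and of Inpp5d, the lipid phosphatase SHIP1.
Havcr2, chr11:46454681-46454980 (+ strand): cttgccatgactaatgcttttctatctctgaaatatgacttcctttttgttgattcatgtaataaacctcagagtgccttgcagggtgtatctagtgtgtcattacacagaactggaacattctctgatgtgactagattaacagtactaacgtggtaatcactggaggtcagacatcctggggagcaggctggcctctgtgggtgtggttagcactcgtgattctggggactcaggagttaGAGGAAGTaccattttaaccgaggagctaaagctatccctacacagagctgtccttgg
Fcgr4, chr1:171018676-171018975 (+ strand): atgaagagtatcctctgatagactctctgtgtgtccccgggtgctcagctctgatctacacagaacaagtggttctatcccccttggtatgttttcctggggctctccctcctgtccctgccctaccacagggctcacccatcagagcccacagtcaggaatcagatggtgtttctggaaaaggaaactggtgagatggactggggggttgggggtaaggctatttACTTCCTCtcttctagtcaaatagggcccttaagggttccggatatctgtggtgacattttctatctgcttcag
Ctss, chr3:95526536-95526835 (+ strand): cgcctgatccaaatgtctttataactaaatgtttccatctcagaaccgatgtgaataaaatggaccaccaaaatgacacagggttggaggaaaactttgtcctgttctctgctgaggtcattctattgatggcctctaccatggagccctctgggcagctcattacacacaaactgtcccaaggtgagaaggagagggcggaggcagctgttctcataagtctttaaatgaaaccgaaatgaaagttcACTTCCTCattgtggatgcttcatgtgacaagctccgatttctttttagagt
Tlr9, chr9:106222348-106222647 (+ strand): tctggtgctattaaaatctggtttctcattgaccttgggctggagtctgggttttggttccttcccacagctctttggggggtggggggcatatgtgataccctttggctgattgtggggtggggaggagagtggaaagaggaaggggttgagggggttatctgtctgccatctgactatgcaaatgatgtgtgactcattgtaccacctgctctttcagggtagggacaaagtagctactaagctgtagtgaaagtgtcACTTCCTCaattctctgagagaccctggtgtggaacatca
Aim2, chr1:173420354-173420653 (+ strand): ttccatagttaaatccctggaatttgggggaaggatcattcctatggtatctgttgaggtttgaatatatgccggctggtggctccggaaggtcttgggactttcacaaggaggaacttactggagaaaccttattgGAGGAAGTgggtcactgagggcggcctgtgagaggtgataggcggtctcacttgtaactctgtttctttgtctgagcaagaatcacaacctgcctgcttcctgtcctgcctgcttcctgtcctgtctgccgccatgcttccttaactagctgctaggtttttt
Inpp5d, chr1:87620062-87620361 (+ strand): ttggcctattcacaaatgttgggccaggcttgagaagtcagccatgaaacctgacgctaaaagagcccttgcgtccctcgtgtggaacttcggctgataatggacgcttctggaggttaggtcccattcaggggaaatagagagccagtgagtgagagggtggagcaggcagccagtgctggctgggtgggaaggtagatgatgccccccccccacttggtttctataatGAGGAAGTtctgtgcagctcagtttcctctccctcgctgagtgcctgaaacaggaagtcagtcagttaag

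The octamer began at position -8 in the Havcr2 promoter, at -24 in Fcgr4, at -2 in Ctss, at 11 in Tlr9, at -113 in Aim2 and at -20 in Inpp5d, with the listed start counted as 1 and no position 0. Peaks over the Havcr2 promoter were 610 and 616 bases wide in library 1 and library 2. Those over the Fcgr4 promoter were far narrower, at 206 and 187 bases, and those over the Ctss promoter measured 255 and 263 bases. All of these promoters held few CG pairs, between 0 in Tlr9 and 6 in Inpp5d.

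Octamer promoters of the neutrophil list went both ways. Those of Mmp8 and S100a8 were overlapped by a shared region, and those of Prtn3, Elane and Mpo were not. The promoters of Elane and Mpo, 2 neutrophil granule genes, were overlapped by no region of either library. Elane encodes neutrophil elastase and has the octamer at -85, and Mpo encodes myeloperoxidase and has it at -224.
Elane, chr10:79886062-79886361 (+ strand): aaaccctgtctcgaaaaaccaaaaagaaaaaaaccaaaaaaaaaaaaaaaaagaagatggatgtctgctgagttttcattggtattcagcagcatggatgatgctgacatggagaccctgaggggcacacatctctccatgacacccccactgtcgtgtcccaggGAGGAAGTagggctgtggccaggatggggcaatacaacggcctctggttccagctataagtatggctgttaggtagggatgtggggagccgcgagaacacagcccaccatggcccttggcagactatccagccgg
Mpo, chr11:87793534-87793833 (+ strand): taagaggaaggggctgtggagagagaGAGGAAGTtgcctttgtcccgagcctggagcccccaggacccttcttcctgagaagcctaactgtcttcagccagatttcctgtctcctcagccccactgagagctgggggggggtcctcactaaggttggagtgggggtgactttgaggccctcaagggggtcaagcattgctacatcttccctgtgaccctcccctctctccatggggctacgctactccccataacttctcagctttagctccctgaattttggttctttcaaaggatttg

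By contrast, the promoter of Ppia, the housekeeping gene of the protein-folding enzyme cyclophilin A, held 43 CG pairs, which are the capitals in its sequence. Its shared region had peaks of 1436 and 1385 bases, wider than those at Havcr2. Widths varied among housekeeping promoters: Polr2a, with 30 CG pairs, had peaks of 1670 and 1580 bases. Eef2, with 34 CG pairs, had peaks of 745 and 603 bases.
Ppia, chr11:6415617-6415916 (+ strand): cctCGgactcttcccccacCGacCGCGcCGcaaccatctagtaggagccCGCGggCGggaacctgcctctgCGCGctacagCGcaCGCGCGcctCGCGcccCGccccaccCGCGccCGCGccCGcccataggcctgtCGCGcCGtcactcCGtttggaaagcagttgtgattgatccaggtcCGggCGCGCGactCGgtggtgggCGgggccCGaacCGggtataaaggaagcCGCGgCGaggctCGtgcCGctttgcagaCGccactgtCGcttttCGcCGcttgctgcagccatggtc

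The libraries resembled each other in size. Library 1 had 60117 peaks covering 31.2 Mb, and library 2 had 59218 peaks covering 30.9 Mb. Median peak width was 437 bases in library 1 and 434 bases in library 2, and 84.8% and 86.0% of their peaks lay in shared regions. The deposited lists hold positions only, so read depth is unknown and no counting interval can be given. Absence from a list means only that no peak was called, and the chromatin there may still be open. On the sex chromosomes the libraries differed: 2.93% of the peaks of library 1 and 2.53% of those of library 2 lay on X, 33 and 59 peaks lay on Y, and 3 and 0 peaks lay within 1 kb of Xist, the RNA of X inactivation. The part of this difference in the calls on X and Y was not tested, and 69.9% of the merged regions on X were shared.

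Shared regions were wider than the regions of a single library. Their median width was 553 bases (interquartile range 387 to 787 bases), against 245 bases for regions called in exactly 1 library, and together they covered 31.9 Mb, against 4.92 Mb. Merging joins the outer ends of both peaks, which widens a shared region: the stretches covered by both libraries had a median of 411 bases. Width and sharing moved together. Of merged regions narrower than 300 bases, 31.6% were shared, of those from 300 to below 500 bases 78.7%, of those from 500 to below 1000 bases 96.6%, and of those from 1000 to below 2000 bases 98.5%. The narrowest shared region measured 174 bases and the widest 60486 bases.

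**Figure D1:**
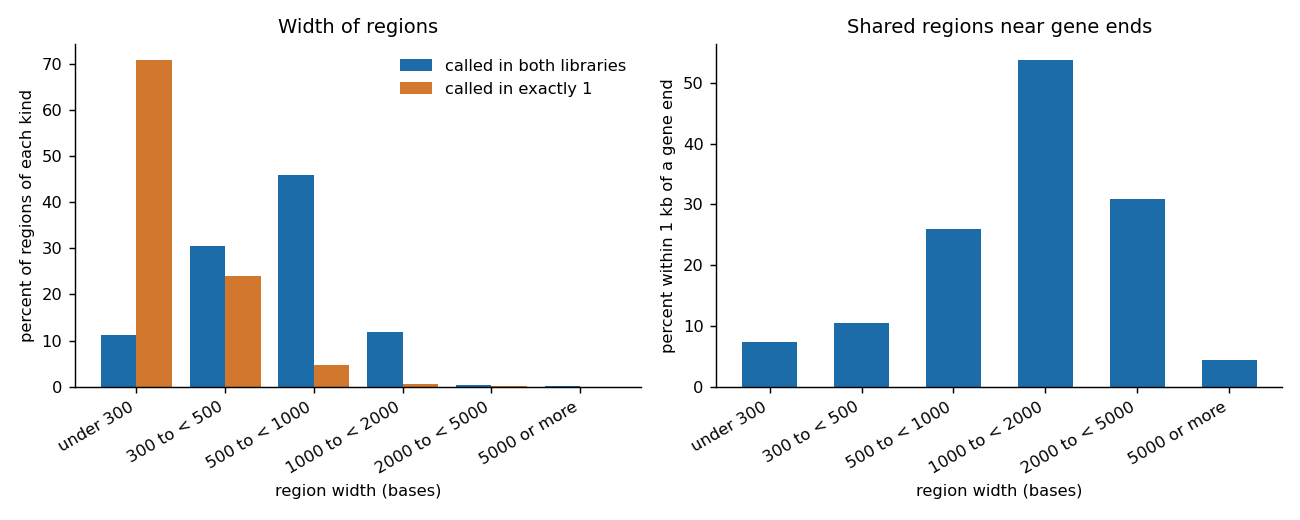
Left, percent of shared regions (blue) and of regions called in exactly 1 library (orange) in each class of region width in bases. Right, percent of the shared regions of each width class that lie within 1 kb of an end of a protein-coding gene. The single-library regions sit mostly under 300 bases (70.8%), and the share near gene ends peaks at 53.7% for shared regions from 1000 to below 2000 bases.

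Agreement within a shared region was close. In 49592 shared regions (98.2%) each library had exactly 1 peak, with median peak widths of 486 bases in library 1 and 484 bases in library 2. Across these regions the widths of the 2 peaks differed by a median of 65 bases and had a Spearman rho of 0.833 (n = 49592 regions, which share the peak caller and the local sequence). Both libraries overlapped by at least 50% of each other's peaks in 47324 regions, or 93.7%. At the edge of the rule, 47 shared regions overlapped by under 50 bases, the smallest by 3 bases, and 110 single-library regions had a peak of the other library within 100 bases.

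The 6 other libraries of the series, which the rule did not use, called most of these regions too. All 6 called 36139 shared regions (71.6%), against 845 regions of a single library (4.85%). None of the 6 called 640 shared regions (1.27%), against 5213 single-library regions (29.9%). Shared regions called in all 6 were wide, with a median of 645 bases, and those called in none were narrow, with a median of 300.5 bases. The libraries come from 1 study and 1 peak caller, so this is agreement within the series.

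Most shared regions lay away from the ends of genes. Of the 50489, 11335 (22.5%) were within 1 kb of an end of a protein-coding gene, 21088 (41.8%) were inside a gene body and farther than 1 kb from its ends, and 18066 (35.8%) were outside genes and over 1 kb away. Among regions called in exactly 1 library, 8.25% were near a gene end, 47.4% inside genes and 44.3% outside. Regions near gene ends were the widest class, with a median of 804 bases, against 510 bases inside genes and 504 bases outside them. The gene table lists bodies on GRCm38.p6 without strand, so either end is counted here.

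Where a start of transcription was listed, shared regions lay mostly at the start and seldom at the far end. Among 14059 protein-coding genes longer than 4 kb with a listed start, 8015 (57%) had a shared region within 1 kb of the start and 1152 (8.19%) had one within 1 kb of the far end. Of the genes with a region at the far end, 795 had one at the start too and 357 had one at the far end only. Shared regions covered the exact start in 46.2% of all 21263 listed starts. Coverage fell to 1.7% of starts at 3 kb upstream and to 1.39% at 3 kb downstream.

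The macrophage lists, which hold lineage factors, receptors, adhesion and lysosome genes, were covered at the start more often than all starts, and markers of other cell types less often. Of 109 listed starts of the macrophage lists, 66.1% were covered at the start, against 9.65% of 114 listed starts of the lists of other cell types. At 1100 bases upstream, 17.4% of the macrophage starts and 4.15% of all starts were covered, and at 1000 bases downstream 11.9% and 4.91%. The upstream value was a local high of 19 macrophage starts, with 11.9% covered nearer the start, at 800 bases upstream. Away from the start the order varied: at 400 bases upstream 25.7% of the macrophage starts and 27.3% of all starts were covered, and at 3 kb upstream 3.51% of the starts of other cell types and 1.7% of all starts. Several starts can belong to 1 gene: the 109 starts are of 83 genes, and the 114 starts are of 94 genes.

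**Figure D2:**
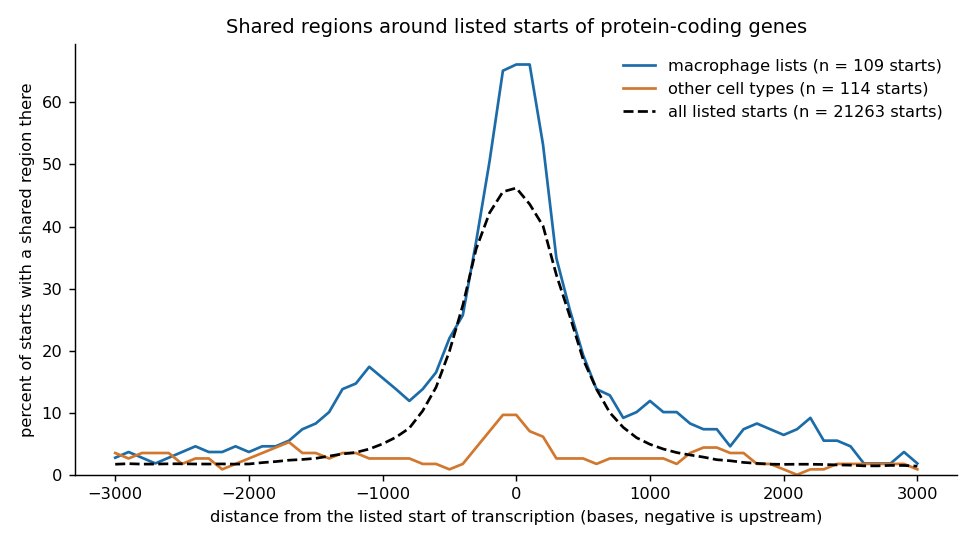
Percent of listed starts of protein-coding genes with a shared region at each distance from the start, in bases along the direction of transcription, for the macrophage lists (blue), the lists of other cell types (orange) and all listed starts (dashed). The macrophage line reaches 66.1% at the start, the line of other cell types 9.65% and the line of all starts 46.2%.

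Promoters under shared regions were rich in CG pairs. The 300 bases around a listed start overlapped a shared region at 10312 of 21263 starts, or 48.5%. Overlapped promoters held a median of 22 CG pairs and 61.7% G and C, against 4 CG pairs and 50.3% G and C where neither library called a region. The overlapped share was 5.52% for promoters with 0 to 2 CG pairs, 14.5% with 3 to 5, 31.7% with 6 to 10, 68.0% with 11 to 20 and 80.3% with 21 or more. Starts of the macrophage lists held few CG pairs as a whole, with a median of 8. The median was 9 for those overlapped by a shared region and 7 for the rest. Among the macrophage starts 78 of 109 (71.6%) were overlapped, against 11 of 114 (9.65%) for other cell types.

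Short motifs were counted on both strands of the same 300 bases, as a description of letters and not of binding. The octamer GAGGAAGT was in 3.44% of promoters overlapped by a shared region and in 2.84% of the rest, with 3.13% of all promoters holding it. In the macrophage lists 12 of 109 starts (11%) held it, of which 11 were overlapped by a shared region. The exception was Tlr1, a receptor of bacterial lipopeptides, whose octamer promoter was overlapped by a region of 1 library. Of all 666 starts with the octamer 355 (53.3%) were overlapped, and of all macrophage starts 71.6%. In the lists of other cell types 7 of 114 starts (6.14%) held it, and the 3 overlapped ones were those of Mmp8, a neutrophil collagenase, S100a8, a calcium-binding protein of neutrophils and monocytes, and Pf4, a platelet chemokine.

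Letters common at broadly used promoters separated the classes more clearly. The ETS core CCGGAAGT was in 9.58% of overlapped promoters and in 0.968% of the rest (5.15% of all). It shares its last letters with GAGGAAGT, but both cannot match at the same position. The NRF1 motif was in 11.8% and 1.27% (6.38% of all), and the GC box GGGCGG in 67.3% and 26.4% (46.2% of all). In the other direction, TATAAA was in 6.2% of overlapped promoters and in 18.6% of the rest (12.6% of all), and the AP-1 motif TGANTCA in 4.48% and 9.35% (6.99% of all). The E-box CACGTG was in 10.9% and 4.99% (7.84% of all), and the C/EBP motif TTGCNNAA in 8.06% and 12.2% (10.2% of all). The CCAAT box, at 39.7% and 36.8% (38.2% of all), and the paired IRF motif, at 3.14% and 3.55% (3.35% of all), were close in both classes. The ETS core, NRF1 motif, GC box and E-box contain CG pairs, and the part of CG content in these counts was not tested.

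The macrophage markers were checked first among named genes. All 4 had shared regions assigned to them, meaning regions for which the gene was the nearest protein-coding gene within 100 kb. Over all protein-coding genes, 67.4% had at least 1 assigned region. Csf1r had 6 assigned regions, Spi1 had 4, Adgre1 had 5 and Itgam had 7.

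At Csf1r (chr18:61105572-61131139), 4 of the 6 regions lay inside the gene. The widest, chr18:61120022-61121023, had peaks of 968 and 897 bases, and the region chr18:61108382-61109035 had peaks of 654 and 651 bases. Both were called in all 6 other libraries. No shared region lay within 1 kb of its lower-coordinate end. The region beyond its higher-coordinate end, chr18:61131509-61133084, is nearest to the neighbouring gene Hmgxb3, so the call of a region at an end of Csf1r rests on that neighbour's region.

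Spi1 (chr2:91082374-91115759) held its regions in 2 pairs. The region chr2:91082797-91083286 near its lower-coordinate end had peaks of 490 and 399 bases, and the region chr2:91096379-91097193 had peaks of 733 and 599 bases. Their centres were 13.7 kb apart. Mouse Spi1 is known for an enhancer upstream of its promoter to which PU.1 itself binds, but the sources used here list neither element, so the regions are not named.

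At Adgre1, which encodes the surface protein F4/80, the region chr17:57358516-57358953 covered the lower-coordinate end with peaks of 435 and 409 bases. A wider region, chr17:57347024-57347999, lay 10.6 kb outside the gene with peaks of 968 and 936 bases. Itgam encodes CD11b, an integrin chain of myeloid cells. Its region nearest to the listed start, chr7:128063315-128063692, had its centre 0.864 kb inside the gene with peaks of 378 and 358 bases, and the 300 bases around the start itself were overlapped by no region. Its widest region lay 26.4 kb from the nearer gene end with peaks of 648 and 643 bases.

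**Figure D3:**
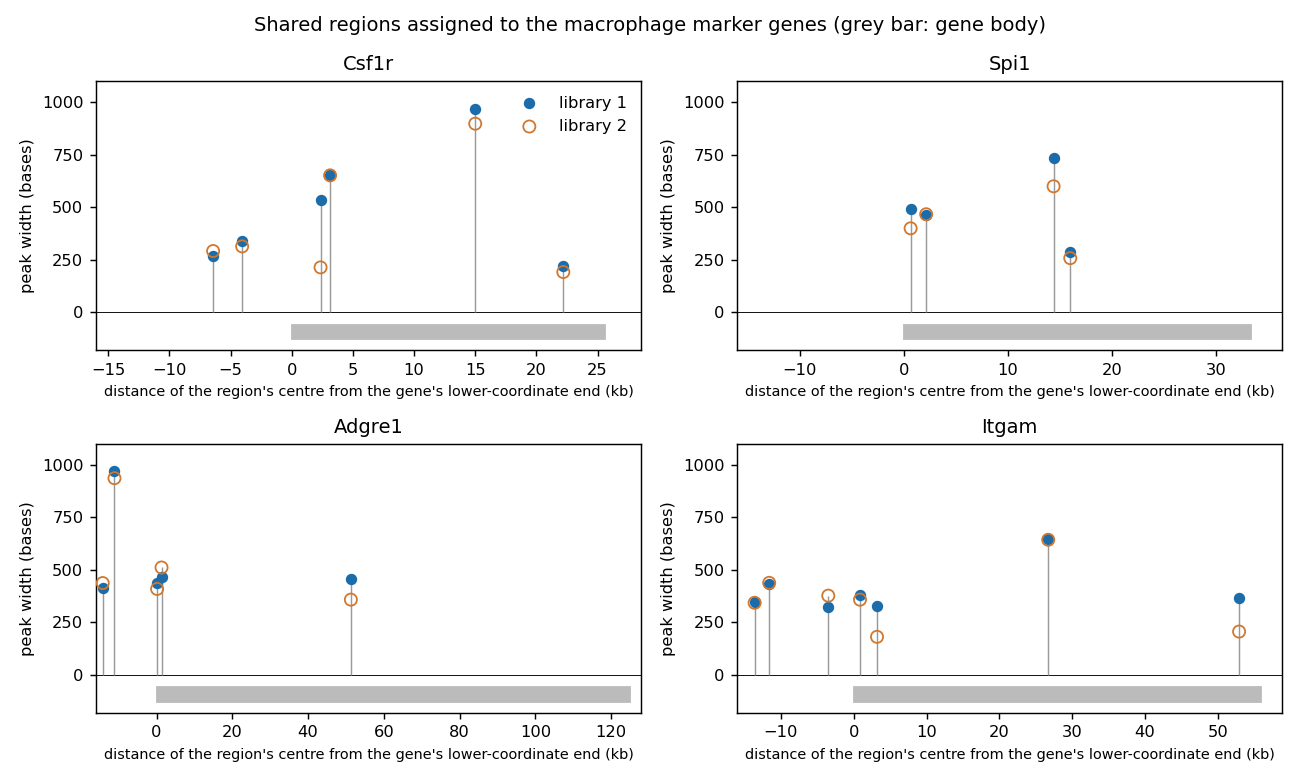
Peak width in library 1 (filled) and library 2 (open) of every shared region assigned to Csf1r, Spi1, Adgre1 and Itgam, against the distance of the region's centre from the gene's lower-coordinate end in kb; the grey bar is the gene body. The widest region of Csf1r (968 and 897 bases) lies inside the gene, and that of Adgre1 (968 and 936 bases) lies outside it.

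Most genes of the macrophage lists had a shared region at an end. Of 114 genes, 93 (81.6%) had a shared region within 1 kb of an end, where the background over 21887 protein-coding genes was 52.4%. In the lists of 10 other cell types, 28 of 120 genes (23.3%) had one. A further 17 macrophage genes had one over the body only, and the other 4 had neither. Over all protein-coding genes, 64.3% had a region at an end or over the body. None of the 114 macrophage genes lacked an assigned region, and 52 of the 120 other genes lacked one, where the background was 32.6%. Median gene length was 23.3 kb in the macrophage lists, 12.5 kb in the other lists and 17.2 kb over all protein-coding genes. The macrophage genes had a median of 6 assigned regions (range 1 to 24). The other lists had a median of 1 (range 0 to 6), the same median as all protein-coding genes.

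Lineage factors, which set macrophage identity, had a region at an end in 19 of 24 genes. The genes of this list with the most assigned regions were Etv6, a repressor of the ETS family, with 24, Mef2c with 23 and Runx1 with 21, of 234 in all. The peaks at the Runx1 end measured 626 and 650 bases. Cebpa, the C/EBP factor of myeloid commitment, had 6 regions, of which the one over its promoter was the widest with peaks of 1290 and 1299 bases. Cebpb had 12, with peaks of 1114 and 1256 bases over its promoter.

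Irf8, a factor of monocyte and dendritic cell development, had 12 regions. The region over its end had peaks of 498 bases in library 1 and 231 bases in library 2. Median peak widths in shared regions with 1 peak in each library were 486 and 484 bases, so only the library 2 peak was narrow. Lineage factors without a region at an end were Irf5, Mef2c, Batf3, Fli1 and Rxra. Fli1, an ETS factor, still had 16 assigned regions, of which 15 overlap its body. Mef2c had 18 regions over its body and a region over 1 of its 3 listed starts.

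M-CSF signalling and receptor kinase genes had a region at an end in 13 of 15 cases. Lyn, a Src-family kinase, had 22 assigned regions, Syk, the kinase downstream of Fc receptors, had 11, and Pik3cg, a phosphoinositide kinase of leukocytes, had 10. Peaks over the end of Syk were 962 and 910 bases wide. Csf3r, the receptor of the granulocyte factor G-CSF, and Fgr, a Src-family kinase, had none at an end, although a region lay over the listed start of Csf3r with peaks of 682 and 652 bases.

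Phagocytic, scavenger and Fc receptors had a region at an end in 16 of 20 genes. Msr1, the class A scavenger receptor, had 12 assigned regions and peaks of 627 and 712 bases over its end. Mrc1, the mannose receptor CD206, had 11, with peaks of 449 and 462 bases at its end, and Lrp1 had 9. Mertk, a receptor for dead cells, had 6, with wide peaks of 1134 and 1002 bases at its end. Without a region at an end were Cd36 and Olr1, which bind oxidised lipoprotein, Stab1, a scavenger receptor, and Cd163, the haemoglobin receptor. Cd163 had 7 assigned regions, of which the widest in library 2 measured 875 bases, and Stab1 had 2.

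Integrin and adhesion genes had a region at an end in 8 of 14 genes (57.1%, where the background was 52.4%), and over a listed start in 7 of the 8 genes that have one (87.5%, where the background was 50.9%). Itgav, Itgb1 and Cd44 each had 10 assigned regions, and the region over the end of Itgb1 had peaks of 1475 and 1468 bases. Itgal, Itgav, Itgb3, Pecam1 and Selplg were among the genes without a region at an end. A region lay over the listed start of Itgav, which is not at the end of its annotated body.

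Pattern recognition genes had a region at an end in 19 of 20 cases, with Tlr1 the exception. Tlr4, the receptor of LPS, had 11 assigned regions, and its end region had peaks of 819 and 1930 bases, a wider difference than the median of 65 bases. Aim2 had 15 regions and Ly96, which encodes the LPS-binding partner of Tlr4, had 9. Lysosome and antigen genes had one in 17 of 20, led by Tfeb, a master factor of lysosome genes, and Lamp2, a lysosomal membrane protein, with 9 each, and Ctsd, a lysosomal protease, with 6. The exceptions were Cd74, H2-Aa and Ciita of the MHC class II pathway, whereas H2-Ab1 of the same pathway had a region at an end, and so did Ciita in library 2 alone.

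**Figure D4:**
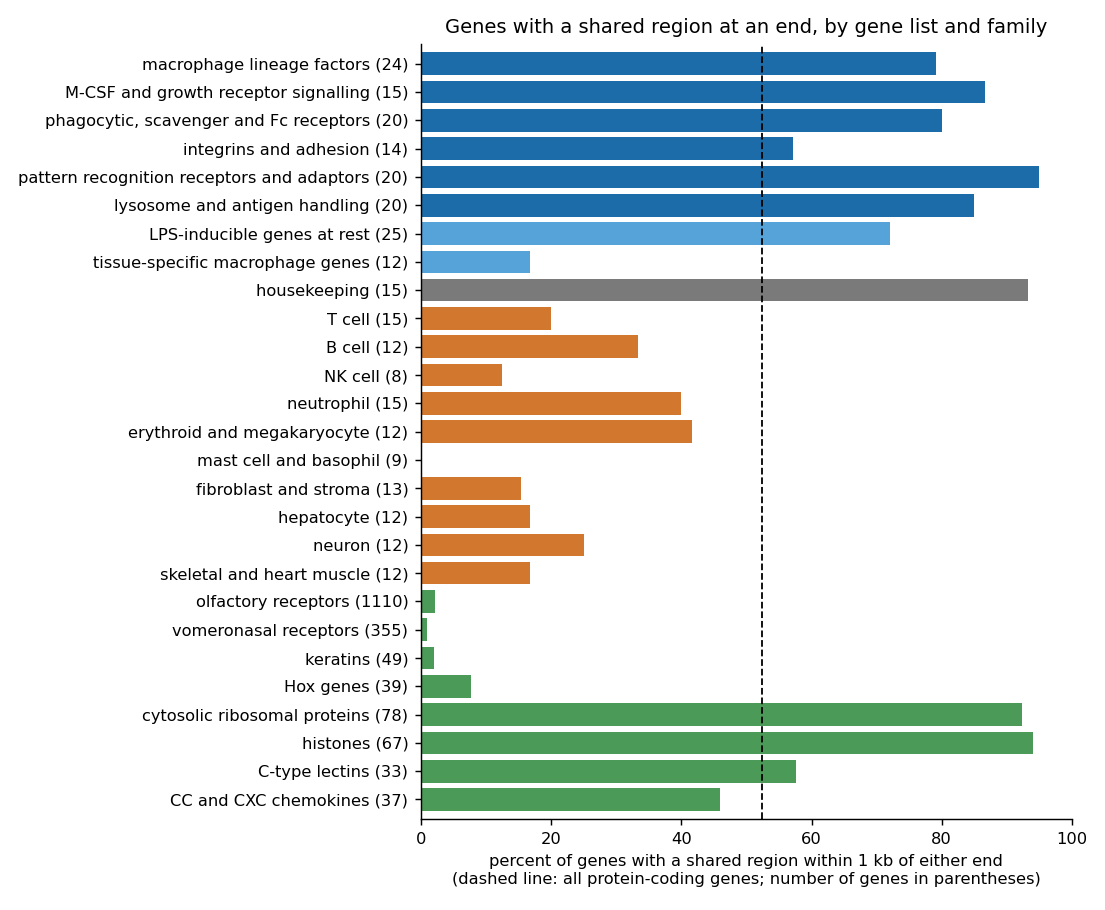
Percent of genes with a shared region within 1 kb of either end, for the macrophage lists (dark blue), LPS-inducible and tissue-specific macrophage genes (light blue), housekeeping genes (grey), other cell types (orange) and gene families (green), with the number of genes in parentheses and the background of 52.4% as a dashed line. Pattern recognition genes reach 95%, mast cell and basophil genes 0.

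Of the 21 macrophage genes without a region at an end, 17 had a shared region over the body. Of the 13 with a listed start, 4 had a shared region over one, namely Cd36, Csf3r, Itgav and Mef2c. Counted over listed starts, 66 of 83 macrophage genes (79.5%) and 10 of 94 genes of other cell types (10.6%) were overlapped, where the background was 50.9%.

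Genes that LPS induces had shared regions at an end in unstimulated cells in 18 of 25 cases (72.0%), where the background was 52.4%. Over a listed start the share was 68.4%, where the background was 50.9%. Tnfaip3, which encodes the NF-kappaB inhibitor A20, had 13 assigned regions, with peaks of 826 and 786 bases at its end. Nfkbiz and Ptgs2, which encodes cyclooxygenase 2, had 8 each, with end peaks of 1081 and 1225 bases for Nfkbiz and 726 and 657 bases for Ptgs2. Il1a, Il1b, Il12a, Nos2, Ccl5, Cxcl1 and Ifnb1 had none at an end. Nos2, the inducible nitric oxide synthase, had a single assigned region, 3.9 kb away, with peaks of 425 and 371 bases. Il1b had 4 regions, the nearest 2.02 kb away, and Ifnb1 had 4, the nearest 6.12 kb away.

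Genes that mark macrophages of particular tissues had a region at an end in 2 of 12 cases (16.7%), where the background was 52.4%. These were P2ry12 of microglia and Id3, a factor of Kupffer cells. P2ry12 had 6 assigned regions, with peaks of 508 and 726 bases over its end. Sall1 of microglia, Spic of red pulp macrophages, Car4 of alveolar macrophages and Lyve1 had no assigned region at all. Housekeeping genes had a region at an end in 14 of 15 cases (93.3%, with the same background), with Ywhaz the exception.

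Lists of other blood and tissue markers were all below the background of 52.4%, by different amounts. T cell genes had a region at an end in 3 of 15 cases, B cell genes in 4 of 12, NK cell genes in 1 of 8 and mast cell and basophil genes in 0 of 9. Neutrophil genes, with 6 of 15 (40.0%), and erythroid and megakaryocyte genes, with 5 of 12 (41.7%), came nearest to the background. The defining markers Cd3e, Cd79a, Mpo, Elane, Gata1, Alas2 and Prf1 had no assigned region. Other markers did have a region at an end, among them Cd3d, Cd28 and Il7r of T cells, Ms4a1, Cr2 and Blnk of B cells, Eomes of NK cells, Prtn3, Camp, S100a8, Mmp8 and Cebpe of neutrophils, and Tfrc and Pf4 of the erythroid and megakaryocyte list. The fibroblast and stroma list had one in 2 of 13 genes, the hepatocyte and muscle lists in 2 of 12 each, and the neuron list in 3 of 12. A few cells of another type and low accessibility in all cells cannot be told apart in bulk libraries. Some genes of these lists carried several assigned regions: Prrx1, a mesenchymal homeobox gene, and Cd28, the T cell costimulator, had 6 each, and Foxa2, Neurod1 and Dlx2 had 5 each.

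Large families of sensory receptors seldom had a shared region at an end. Of 1110 olfactory receptor genes, 24 (2.16%) had a shared region at an end, of 355 vomeronasal receptor genes 3 (0.845%), and of 49 keratin genes 1, Krt10. An assigned region was more frequent, in 96 olfactory receptor genes (8.65%) and 36 vomeronasal receptor genes (10.1%), where the background was 67.4%. Of 39 Hox genes 3 had a shared region at an end. In contrast, 72 of 78 cytosolic ribosomal protein genes (92.3%) and 63 of 67 histone genes (94.0%) had one at an end. C-type lectins, with 19 of 33 (57.6%), and CC and CXC chemokines, with 17 of 37 (45.9%), were near the background of 52.4% at an end. The histone genes, of median length 0.496 kb, had an assigned region in 48 cases (71.6%), near the background of 67.4%.

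Assigned regions were unevenly spread over genes. Of 21887 protein-coding genes, 7141 (32.6%) had no assigned region, and the 818 with 10 or more (3.74%) took 24.6% of the 47007 assigned regions. Longer genes had more regions, with a Spearman rho of 0.508 across genes, and the 106 genes with 20 or more regions had a median length of 336 kb, against 17.2 kb for all genes. Pde4d, a cAMP phosphodiesterase gene of 1302 kb, had the most, with 52 assigned regions (51 over its body), 41 of them called in all 6 other libraries. Its regions ranged from 244 to 1448 bases.

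After Pde4d came Lpp with 33, the transcription factor gene Foxp1 with 32, Akap13 and Zmiz1 with 31 each, Arhgap24 and Tns3 with 30 each, and Asap1 and Nav2 with 29 each. Sgms1, Sh3kbp1 and Tcf4 had 29 as well and come after these in the alphabet, by which ties were broken. Akap13 anchors protein kinase A, and Zmiz1 is a coactivator. Zmiz1 had 7.582 regions per 100 kb of gene and flanks, against 3.463 for Pde4d.

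Counted per 100 kb of gene and flanks, short genes led. S1pr1, a receptor of sphingosine 1-phosphate, had 19 regions although the gene is 4.623 kb long (9.285 per 100 kb), and 17 of them lay outside its body. Cd93, a receptor of myeloid and endothelial cells, had 18 (8.7 per 100 kb) and Rap2b, a small GTPase, 17 (8.325 per 100 kb). Zfp217 and Basp1 had 20 each. Tomm20 had 16, Zfp36l2, a regulator of mRNA decay, 15, Pik3r1, the regulatory subunit of PI3 kinase, 21, and Pip4k2a 26. Each had at least 10 regions assigned, and Zmiz1 was the only gene among the first 10 by both counts.

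**Figure D5:**
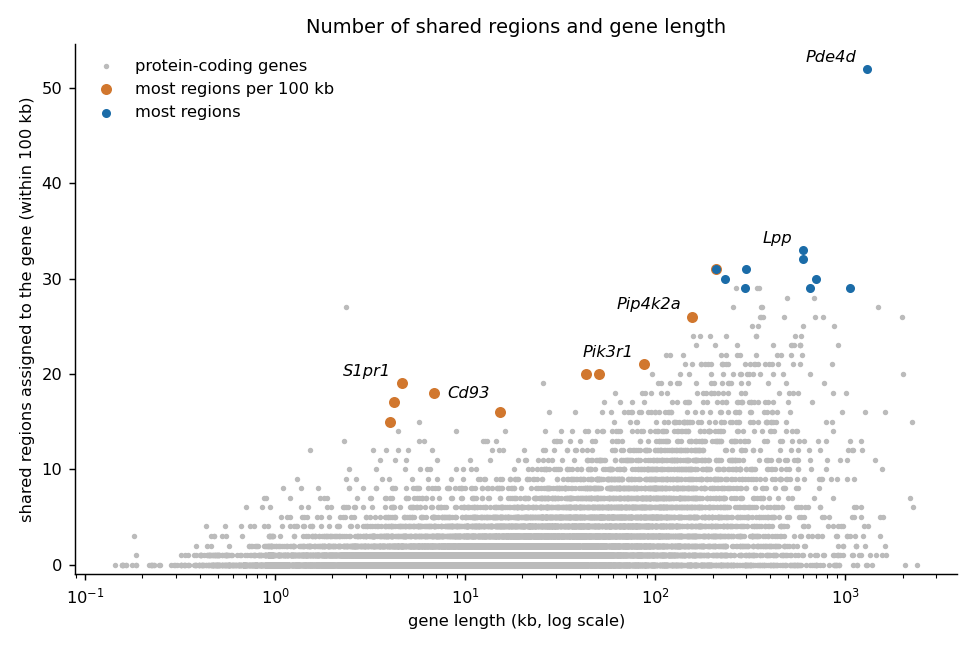
Number of shared regions assigned to each protein-coding gene against gene length in kb on a log scale (grey), with the 10 genes with the most regions (blue) and the 10 with the most per 100 kb (orange), predicted genes passed over. Pde4d leads with 52 regions over 1302 kb, and S1pr1 has 19 although it is 4.623 kb long.

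Very wide regions were rare and lay mostly away from genes. Of 23 shared regions of 5000 bases or more, 1 lay near a gene end, 7 inside a gene and 15 outside, 5 of them over 100 kb from a gene, and 12 were stitched from at least 2 peaks of a library. The widest, chr8:123563330-123623815 (60486 bases, 7 peaks in library 1 and 3 in library 2), was 26.7 kb from Gas8. The next, chr9:3000032-3038287, was a single peak in each library of 38256 and 38247 bases, 297 kb from Alkbh8. With 1 region per gene and predicted genes passed over, regions nearest to Apba2 (30193 bases), Zmat1 (15019 bases), Flg2 (13098 bases), Galr1 (9837 bases), Tmem267 (7310 bases), Pfkp (6668 bases), Tcte2 (5784 bases) and Olfr161 (5745 bases) followed. These 10 regions were all called in all 6 other libraries. No filter for repeats or poorly mappable sequence was applied here, and whether such very wide calls are open chromatin was not tested.

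At gene ends the widest regions were smaller. Mndal, an interferon-inducible gene of the Aim2 neighbourhood, had one of 3312 bases, Etv1, an ETS factor gene, one of 2702 bases with peaks of 2637 and 2574 bases, and Samd9l, an antiviral protein gene, one of 2669 bases with peaks of 2565 and 2669 bases. Macir, with peaks of 2359 and 2353 bases, and Lemd3, an inner nuclear membrane protein gene, with peaks of 2342 and 2328 bases, showed nearly equal widths in both libraries.

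Regions far from protein-coding genes were mostly near other annotated genes. Of 3482 shared regions (6.9%) over 100 kb from a protein-coding gene, 3045 were within 100 kb of a gene of any kind. The annotation holds 49943 genes of any kind. No background share of other positions this far out is given, so the count only describes these regions. The 3482 regions were about as wide as other regions outside genes, with a median of 518.5 bases. Among regions of a single library 11.4% lay this far out. The farthest lay on chromosome 14, 2060 kb from Olfm4.

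MicroRNA genes of myeloid cells mostly lay near shared regions. Of 18 matched miRNA hairpins of a myeloid list, 15 (83.3%) had a shared region within 5 kb, against 350 of 1005 hairpins of all kinds (34.8%) and 1 of 13 (7.69%) in a list of other tissues. Neighbouring hairpins share a region: Mir23a, Mir27a and Mir24-2 have the same one, as do Mir29a and Mir29b-1, and Mirlet7e and Mir125a. Direct overlap was no more frequent in the myeloid list, at 1 of 18 hairpins (5.56%), against 76 of all 1005 (7.56%). Mature sequences of 4 of them are printed 5′ to 3′ from RefSeq on GRCm38.p6, with the seed (bases 2 to 8) in capitals, since their seeds differ and define their targets.
mmu-miR-155-5p, chr16:84714143-84714165 (+ strand): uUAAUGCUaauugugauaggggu
mmu-miR-142a-3p, chr11:87756903-87756925 (+ strand): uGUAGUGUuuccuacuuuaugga
mmu-miR-511-3p, chr2:14261051-14261072 (+ strand): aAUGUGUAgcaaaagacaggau
mmu-miR-21a-5p, chr11:86584120-86584141 (- strand): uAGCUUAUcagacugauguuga

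The miR-155 hairpin, whose product is induced in inflammation, was the only myeloid one overlapped by a shared region, chr16:84713208-84714327, with peaks of 1108 and 295 bases. A region lay 0.036 kb from the miR-142 hairpin, a miRNA of blood cells, with peaks of 467 and 246 bases. The nearest region of miR-511, which lies in the Mrc1 gene, was 0.835 kb away with peaks of 604 and 527 bases, that of miR-21a was 2.29 kb away with 416 and 215 bases, and that of miR-223 was 2.44 kb away with 531 and 758 bases. In the list of other tissues, Mir9-2, a neural miRNA gene, was the one hairpin within 5 kb, and a region covered it with peaks of 452 and 600 bases.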

How the data were processed

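ATAC-seq was run on 8 libraries, of which the 2 untreated wild-type libraries define the regions. The deposited files are peak lists called on each library separately by the authors; each row gives chromosome, start and end of a peak and no score, count or p-value, so the deposited unit (other) is a position. The submitters' processing notes name MACS2 2.1.1, Picard, Bowtie2 2.3.0 and bcl2fastq 2.17.1.14 and the build GRCm38 (mm10). Settings, removal of duplicates, shift of cut sites and peak threshold were not given in the sources used here, and these set which weak peaks enter a list.

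Peaks on the 21 main chromosomes were merged with Python 3.11.15, pandas 2.3.3, NumPy 2.4.6 and SciPy 1.17.1. Each region went to its nearest protein-coding gene (of 21887) within 100 kb (RefSeq table, GRCm38.p6, without strand), and near an end means within 1 kb of it. Listed starts, promoter and miRNA sequences came from RefSeq tables of the same build, which list starts for 17492 of these genes. Merging and annotation were checked on simulated data. Coordinates count from 1.

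Named genes were the 4 markers, the 10 genes with the most assigned regions and the 10 with the most per 100 kb, the 10 widest regions, up to 3 genes per list and macrophage genes with no region at an end; predicted genes were passed over, and other named genes were chosen after their values were seen. The members and gene lists were chosen with earlier results of these data known. Lists of miRNAs, motifs and families, and the use of starts, were added after seeing the data. Some genes that the rules name are not reported here. No test was run, because the peak calls chose the regions.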

Additional observations from a re-analysis of the deposited data

How the results depend on the processing

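Of 44 alternatives, 21 gave a value within the spread of the reported one, or within 1.5 times of it for a count, and 23 moved it further. The number of shared regions fell to 24836 with the widest 50% of peaks of each list, and the share of merged regions called in both was 70.7% when each library had to cover 50% of the region and 71.8% with the widest 50%. Median width was 411 bases over stretches covered by both libraries, and 434 to 437 bases leaving out 1 library. The share near a gene end was 19.9% with a window of 500 bases, 28.2% with 2500 bases, 28.6% with genes of any kind, 34.8% with the widest 50% and 20.2% to 20.4% leaving out 1 library. The share inside genes was 43.5% with a window of 500 bases, 38.3% with 2500 bases, 45.2% with genes of any kind and 42.3% to 43.0% leaving out 1 library. Outside genes it was 26.2% with genes of any kind and 36.8% to 37.2% leaving out 1 library. Of the 10 genes with the most regions, 6 were kept when a region counted for every gene within 100 kb, 6 with a limit of 25 kb, 1 by regions per 100 kb and 7 to 9 leaving out 1 library. Protein-coding genes with a region at an end ranged from 9590 to 12755 (11464 as reported) and macrophage genes from 73 to 107 (93 as reported). With the widest 50%, 41 macrophage genes had no region at an end, among them the markers Spi1, Adgre1 and Itgam. The cause of these shifts was not tested.

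Read depth is unknown, so how far it limits the calls could not be measured. No paired analysis was possible because the regions come from 1 group and no test was made.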

Other observations

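Segments of the antigen receptor loci lie outside the protein-coding lists, and shared regions over them were mainly at the immunoglobulin heavy chain. Of 183 annotated Ighv segments, the variable segments of the immunoglobulin heavy chain, 58 (31.7%) were overlapped by a shared region, with 73 overlapped by a peak of library 1 and 72 by one of library 2. In contrast 2 of 162 Igkv segments (1.23%) were overlapped, 13 of 130 Trav segments and 3 of 35 Trbv segments (8.57%). Segments of the Igl, Trg and Trd loci were overlapped by none. Among the 10 windows of 1 Mb with the most shared regions, the one on chromosome 12 held 68 of them, 54 Ighv segments and no protein-coding gene. Its regions had a median width of 578.5 bases, and 46 of the 68 were called in all 6 other libraries.

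Shared regions crowded in a few other windows of 1 Mb, where the median over windows with a region was 21. The window chr1:171000001-172000000 had the most, with 77. It holds Fcgr3 (8 assigned regions there), Fcgr4 (6) and Fcer1g (2), which encode Fc receptor chains, and the Slamf receptor genes. The window chr4:88000001-89000000 held 71 regions, of which 21 were assigned to Focad and 4 to Ifnb1.

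Density was highest on chromosome 19, at 24.4 shared regions per Mb, and on chromosome 11, at 24.1 per Mb. It was lowest on Y, with 28 regions in all, and was 8.08 per Mb on X. Neighbouring shared regions lay a median of 14.7 kb apart, and 308 gaps were longer than 1 Mb. The longest gap, of 10.2 Mb, was on X, and the next, of 7.43 Mb on chromosome 14, holds the protocadherin genes Pcdh20 and Pcdh9.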
